A study of Homo sapiens with 12 samples.

Results

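The comparison asked how gene expression in PC-9 cells that carried a construct for the precursor of miR-371 differed from that in PC-9 cells that carried a GFP vector, in the absence of drug. PC-9 is a human lung adenocarcinoma cell line with an activating EGFR mutation that it depends on for growth. The members were the 3 arrays labelled DMSO with the miR371 precursor and the 3 arrays labelled DMSO with the GFP vector, which is 6 of the 12 arrays of the series, and the 19775 genes that could be read from them. A gene was read from a probe set (a group of short probes against 1 transcript) that carried a single gene symbol, and where a gene had several, the one with the highest mean over the 12 arrays was used. The other 6 arrays held both kinds of cells after 2 µM erlotinib, an inhibitor of the EGFR kinase, for 24 h, which is also how long the DMSO cells had been exposed to the solvent. All groups shared the cell line. The methods describe stable lines made with lentiviral constructs, and their control construct is a scrambled hairpin in a copGFP vector. The labels call the control GFP vector and do not say whether it held that hairpin. The series had 1 stable line of each kind, and whether a line was 1 clone or a pool is not given in the sources used here, so an effect of the precursor and a difference between the lines that were made cannot be told apart. The paper calls its replicates biological and taken from independent experiments, while the labels do not assign the arrays to separate cultures. A p-value given here therefore reflects the spread among these arrays, part of which may be technical.

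A microRNA is cut from a hairpin precursor, loaded into an Argonaute protein and guided to messenger RNAs by its seed, bases 2 to 8 from the 5′ end, which pairs mostly with sites in the 3′ end of the message and leads to its decay or to less translation. Loss of target RNA is usually small for each gene, and secondary changes follow when targets are regulators themselves. The miR-371 hairpin belongs to a cluster on chromosome 19 that is known for its expression in embryonic stem cells and germ cell tumours. RefSeq places the MIR371A hairpin of 67 nt on the plus strand at chr19:53787675-53787741 (GRCh38.p14) and gives 1 mature strand from each arm, which are shown here with the seed in capitals because these are the sequences that the construct was made to supply.
hsa-miR-371a-3p: aAGUGCCGccaucuuuugagugu
hsa-miR-371a-5p: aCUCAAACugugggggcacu
The 3p strand lies at chr19:53787716-53787738 and the 5p strand at chr19:53787680-53787699. None of the 2370 mature human miRNAs in the table shared bases 2 to 8 with either strand (0 for each), and 4 shared bases 2 to 7 with the 3p strand. Of these, the pair from chromosome 19 that also began with the same base are shown to place the 3p strand among its nearest relatives by seed.
hsa-miR-519e-3p: aAGUGCCUccuuuuagaguguu
hsa-miR-371b-3p: aAGUGCCCccacaguuugagugc
The miR-371 precursor itself was not among the genes that could be named on the array, so its level was not checked with these values.

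The 12 arrays had medians of 4.31 to 4.41 on the log2 scale, and the mean correlation within a group was 0.997 to 0.998. The upper quartile was 6.92, 6.81 and 6.77 on the GFP vector arrays and 6.74, 6.74 and 6.72 on the pre-miR-371 arrays in DMSO. Bright genes thus sat lower and dim genes higher on the pre-miR-371 arrays as deposited. Among the 4289 genes with a mean log2 value of 3 to 4.5 the median difference, pre-miR-371 minus GFP vector, was 0.07 and 68.2% were higher, whereas among the 4040 genes of 6 to 8 it was -0.08 and 32.3% were higher. Over all genes the median was -0.0013, with 9818 higher and 9957 lower. With quantile normalization repeated, the medians of the same level classes were 0.03 and 0.01. Centring arrays on their upper quartiles moved the median of all genes to 0.10, and each difference under that scaling is to be read relative to it. Epithelial markers of PC-9 were at a mean log2 value of 11.86 to 11.91 on the GFP vector arrays and 11.87 to 11.88 on the pre-miR-371 arrays in DMSO, with all 8 at 8.43 or higher. Fibroblast markers averaged 4.10 to 4.23 and 4.13 to 4.29 and leukocyte markers 3.82 to 4.12 and 3.89 to 4.06. On the chosen probe sets, none of the measured markers of these types or of endothelium passed the test in either direction. With every probe set tested, another probe set of COL1A1 and of PTPRC passed as higher, by 0.46 and 0.48. Their mean log2 values on the DMSO arrays were 4.74 and 2.73.

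In DMSO, 89 genes were called as different between the lines, 0.450% of all genes tested. Called means a fold above 1.5 together with a p below 0.05 after Benjamini-Hochberg adjustment over all genes, from a linear model fitted with limma, and SE is the standard error of that fit. Of these, 43 were higher (0.217%) and 46 lower (0.233%) in pre-miR-371 cells, and at the adjusted p alone 320 genes were higher (1.62%) and 719 lower (3.64%). The changes were small, with a median fold of 1.64 and a fold over 2 for 7 genes, 4 of them higher. On none of the 89 did the arrays of the lines overlap, a property that 28.4% of all genes showed. The genes that were higher were mostly dim. Both groups had a mean log2 value under 6, a level near background where fold changes are uncertain, for 33 of the 43 that were higher and for 10 of the 46 that were lower.

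**Figure D1:**
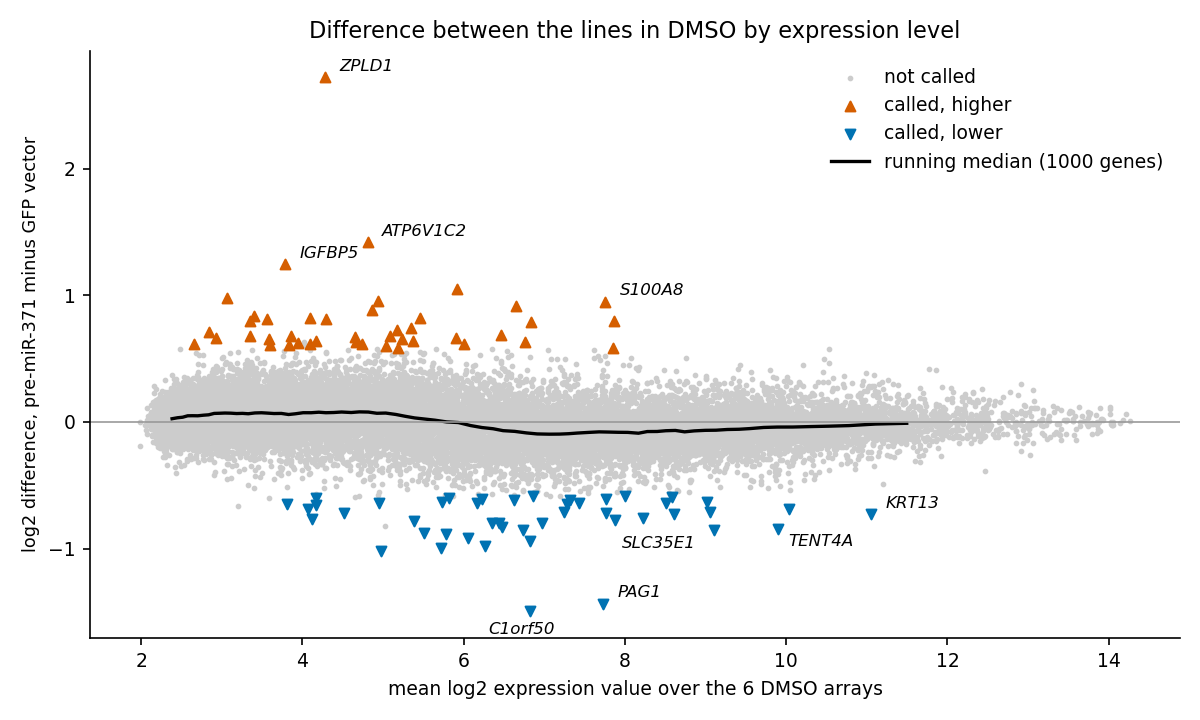
Each point is 1 of 19775 genes, with its mean log2 value over the 6 DMSO arrays on the x axis and the log2 difference in DMSO, pre-miR-371 minus GFP vector, on the y axis, called genes are marked by triangles and the line is a running median. The genes that were higher had a median level over all 12 arrays of 5.37 and those that were lower 6.83, and ZPLD1 at 2.72 and C1orf50 at -1.49 stood farthest from 0.

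The split by direction depended on how the arrays were scaled. As deposited, 48.3% of the called genes were higher. Repeated quantile normalization gave 54 higher and 33 lower (62.1% higher), cyclic loess 52 and 36 (59.1%), median centring 37 and 58 (38.9%) and upper-quartile centring 97 and 26 (78.9%). Of the 89 genes, 60 were called under all 4 of these scalings, 34 of the 43 that were higher and 26 of the 46 that were lower. Leaving out 1 array changed which genes passed, too. Without GFP vector DMSO replicate 1, whose upper quartile was the highest, 33 of the 43 and 26 of the 46 were still called. The whole count without it was 80 (51 higher and 29 lower), and it was 142 (73 and 69) without GFP vector DMSO replicate 3. In all, 43 genes were called whichever 1 of the 12 arrays was left out (19 higher and 24 lower), and 42 of them also under every scaling.

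**Figure D2:**
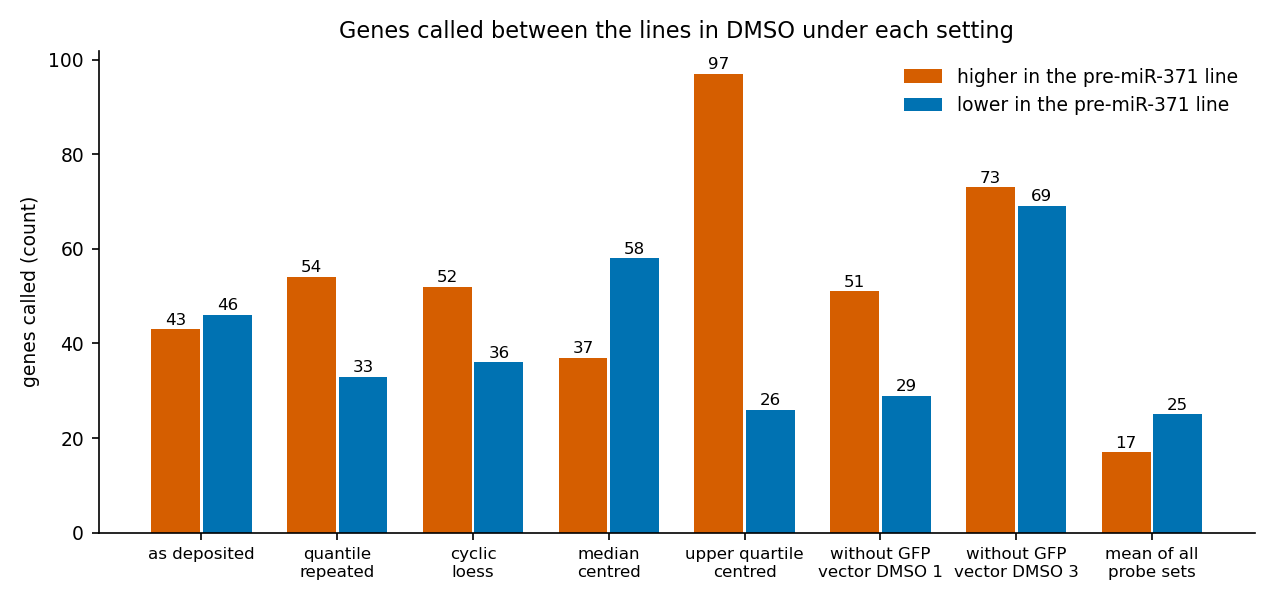
Number of genes called in DMSO, higher and lower in pre-miR-371 cells, as deposited, under 4 other scalings, without GFP vector DMSO replicate 1 or 3, and with the mean of a gene's probe sets (17 higher and 25 lower). The total stays between 87 and 123 under the 4 scalings while the share of higher genes moves between 38.9% and 78.9%.

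The steepest fall was that of C1orf50, an open reading frame on chromosome 1. Its GFP vector arrays read 7.61, 7.61 and 7.49 and its pre-miR-371 arrays 6.03, 6.23 and 5.97, a log2 difference of -1.49 (SE 0.08, adjusted p = 8.42e-06), which is a fold of 2.82. The lowest GFP vector array lay far above the highest pre-miR-371 array. PAG1, a membrane adaptor that holds the kinase CSK near Src family kinases, read 8.45, 8.56 and 8.32 against 7.07, 7.10 and 6.86 (-1.43, SE 0.12, adjusted p = 0.000181). Both other probe sets of PAG1 were lower too, at -1.05 and -1.71. The connexin gene GJA5, a subunit of gap junctions, read 5.93, 5.31 and 5.19 against 4.37, 4.43 and 4.58 (-1.02, SE 0.19, adjusted p = 0.0137). Here GFP vector replicate 1 was well above its own group. These 3 genes were the ones with a fall of more than 2-fold, and each was called under all 4 scalings and without any 1 array.

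Several falls were in secreted or surface proteins. KITLG, the ligand of the KIT receptor, read 7.38, 7.27 and 7.24 in GFP vector cells and 6.45, 6.37 and 6.25 in pre-miR-371 cells (-0.94, SE 0.08, adjusted p = 0.000159). TFF1, a trefoil peptide of mucosal epithelium, read 6.29, 5.99 and 6.36 against 5.34, 5.20 and 5.10 (-1.0, SE 0.16, adjusted p = 0.00725). CEACAM5, the carcinoembryonic antigen, read 7.27, 7.06 and 7.15 against 6.36, 6.33 and 6.23 (-0.86, SE 0.09, adjusted p = 0.000491). In all of these the lowest GFP vector array lay above the highest pre-miR-371 array by more than the range within either group. The other probe set of CEACAM5 was at 0.14 (adjusted p = 0.438), at a mean log2 value of 5.30 on the DMSO arrays. IL1RN, the antagonist of the interleukin 1 receptor, read 6.90, 6.85 and 6.76 against 5.99, 6.14 and 5.98 (-0.80, SE 0.08, adjusted p = 0.000488). Its other probe sets were at -0.25, -0.64, 0.14 and 0.11, so that its fall rested on the chosen probe set and on 1 more. ISM1, a secreted protein, fell by 0.88 (SE 0.18, adjusted p = 0.0183), and was no longer called without GFP vector replicate 1 (adjusted p = 0.07) or pre-miR-371 replicate 2 (0.063) or 3 (0.0792) in DMSO. CD274, the immune checkpoint ligand PD-L1, was named after its values were seen. It read 8.63, 8.60 and 8.60 against 7.82, 7.81 and 7.92 (-0.76, SE 0.09, adjusted p = 0.00179).

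Other falls were in enzymes, transporters and RNAs. TENT4A, a nucleotidyltransferase that adds bases to the ends of RNAs, read 10.39, 10.35 and 10.23 against 9.53, 9.47 and 9.44 (-0.85, SE 0.07, adjusted p = 0.000138). SLC35E1, of the nucleotide sugar transporter family, read 9.61, 9.48 and 9.48 against 8.68, 8.68 and 8.67 (-0.85, SE 0.06, adjusted p = 7.45e-05), and 4 of its 5 other probe sets passed as lower. Both were bright genes with tight arrays. UGT8, which makes galactosylceramide, fell by 0.91 and B4GALT6, which makes lactosylceramide, by 0.80. The junction protein JCAD fell by 0.89, and the long noncoding RNAs WAKMAR2 and LINC00294 by 0.98 and 0.83. For B4GALT6 the arrays were 6.85, 6.84 and 6.56 against 5.90, 5.98 and 5.97. Outside the 15 largest falls, and named after their values were seen, MOB4, a part of the STRIPAK phosphatase complex (9.06, 8.91 and 8.95 against 8.28, 8.22 and 8.24), fell by 0.73 and the zinc transporter family member SLC30A9 by 0.71. Like the 15 largest falls apart from ISM1, they were called under every scaling and without any 1 array. The fall of SLC30A9 was seen on its chosen probe set only. Its other probe set was at 0.02 (adjusted p = 0.923), at a mean log2 value of 7.94 on the DMSO arrays.

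Among the rises, ZPLD1, a membrane protein with a zona pellucida domain, had the largest difference. It read 3.00, 2.90 and 2.85 on the GFP vector arrays, which is at background, and 5.78, 5.41 and 5.73 on the pre-miR-371 arrays, a log2 difference of 2.72 (SE 0.15, adjusted p = 8.42e-06) or a fold of 6.60. As the values hold no detection calls, no bound was set, and the size of this fold is uncertain. Its other probe set differed by 0.01. ATP6V1C2, a subunit of the vacuolar proton pump, read 4.0, 4.0 and 4.30 against 5.67, 5.47 and 5.42 (1.42, SE 0.10, adjusted p = 7.45e-05). IGFBP5, an insulin-like growth factor binding protein, read 3.00, 3.45 and 3.01 against 4.47, 4.49 and 4.25 (1.25, SE 0.11, adjusted p = 0.000257). The 5 other probe sets of IGFBP5 were at -0.07 to 0.20, so this rise was seen on the chosen probe set only. RIPOR3 read 5.37, 5.28 and 5.51 against 6.56, 6.49 and 6.27 (1.05, SE 0.10, adjusted p = 0.00035). The other probe set of ATP6V1C2 was at 0.35 (adjusted p = 0.125) and that of RIPOR3 at -0.16 (adjusted p = 0.499). The array values of these 4 genes did not come near each other between the lines, and they were the 4 with a rise of more than 2-fold.

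**Figure D3:**
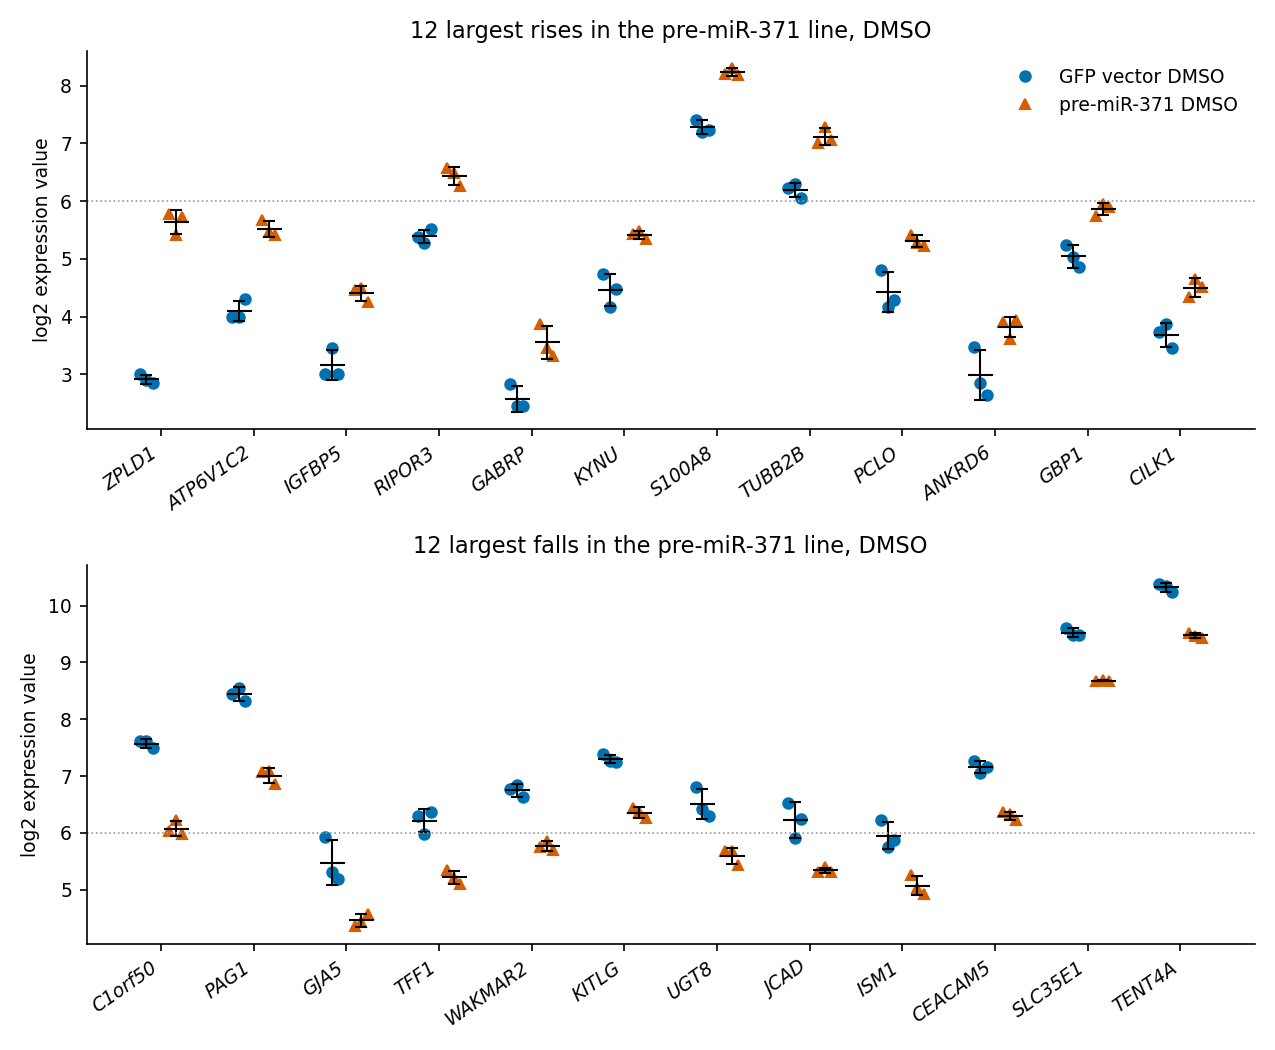
Log2 values on the 3 GFP vector and the 3 pre-miR-371 arrays in DMSO, each point 1 array, for the 12 largest rises and the 12 largest falls. Black marks are means with SD (n = 3), and the dotted line is a log2 value of 6. The lines do not overlap for any gene drawn, and ZPLD1 moves from 2.85 to 3.00 in GFP vector cells to 5.41 to 5.78 in pre-miR-371 cells.

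Some rises were in genes with log2 values above 6 in both lines, TUBB2B only just so in GFP vector cells. S100A8, a calcium-binding subunit of calprotectin, read 7.41, 7.20 and 7.23 against 8.20, 8.30 and 8.19 (0.95, SE 0.07, adjusted p = 7.45e-05). SGPP2, a phosphatase of sphingosine 1-phosphate, read 7.47, 7.49 and 7.45 against 8.30, 8.29 and 8.21 (0.80, SE 0.06, adjusted p = 8.34e-05), and both its other probe sets passed, at 0.75 and 0.76. TUBB2B, a beta tubulin, read 6.24, 6.29 and 6.06 against 7.0, 7.28 and 7.07 (0.92, SE 0.09, adjusted p = 0.000498). Of these 3, SGPP2 had the smallest spread within groups. KYNU, the kynureninase of tryptophan breakdown, was near background in both lines and read 4.73, 4.17 and 4.49 against 5.43, 5.48 and 5.34 (0.96, SE 0.13, adjusted p = 0.00332). Its other probe sets were at 0.17, 0.30 and -0.05. GABRP, a subunit of the GABA-A receptor, was near background in both lines and rose by 0.98, the presynaptic protein PCLO by 0.88 and the ciliary kinase CILK1 by 0.82. ANKRD6 (0.84), VAV3 (0.81) and EPB41L4A (0.81) were each lost without GFP vector replicate 2 or pre-miR-371 replicate 1, and also without pre-miR-371 replicate 3 (ANKRD6) or 2 (the other two), all in DMSO. The adjusted p without them was 0.071 to 0.0918 for ANKRD6, 0.0525 to 0.0748 for VAV3 and 0.0795 to 0.108 for EPB41L4A.

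For 58 of the 89 genes the array held other probe sets, 125 in all, and 93 of these differed in the same direction as the chosen one. Only 24 of them passed the test as well, in 16 genes. Chromosome 19, which holds the hairpin, had 1 higher and 2 lower called genes of 1320 tested (0.227%), the highest share was 1.01% on chromosome 5, and chromosomes 13, 14 and 16 had 0. DNAAF11 and TMEM71 on chromosome 8 were the 1 pair of called genes that lay next to each other.

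Of the genes that the study listed as predicted targets of miR-371-3p, 34 were measured, and 2 were lower and 0 higher in DMSO at the adjusted p, where 3.64% of all genes were lower. The study's sheet of targets has a colour key that includes significance on a microarray, so the list is not independent of these samples. HMOX1, the heme oxygenase, read 7.67, 7.63 and 7.53 in GFP vector cells and 7.33, 7.17 and 7.06 in pre-miR-371 cells. ZNF213, a zinc finger gene, read 7.24, 7.25 and 7.16 against 6.87, 6.87 and 6.65. Under the 4 scalings the differences ran from -0.46 to -0.32 for HMOX1 and from -0.45 to -0.30 for ZNF213, and both passed each time. HMOX1 was lost without GFP vector replicate 1 or 2 or pre-miR-371 replicate 2 or 3 in DMSO (adjusted p = 0.0629 to 0.0784). With every probe set tested, another probe set of ATP2A2 (-0.41, adjusted p = 0.00806) and of FGFR1 (-0.39, 0.0269) passed as lower. The same held for GABBR2 (-0.45, 0.0293) and PIGK (-0.34, 0.045). The chosen probe sets of these genes did not pass, at -0.03, -0.17, -0.12 and 0.0018, nor did their remaining ones.

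The 3 targets that the study followed were near the level of the control line. PRDX6, which reduces peroxides and has phospholipase activity, read 12.54, 12.49 and 12.51 against 12.41, 12.39 and 12.38. STX12, a syntaxin of endosomes, read 8.14, 7.95 and 7.99 against 7.84, 7.95 and 7.84, and PLCB4, a phospholipase C, 7.40, 7.09 and 6.98 against 7.01, 6.93 and 7.26. The arrays of PRDX6 did not overlap (exact two-sided permutation test p = 0.1, the smallest that 3 arrays against 3 allow), whereas those of STX12 (p = 0.2) and PLCB4 (p = 0.6) did. None of these passed limma's test across all genes (adjusted p = 0.177, 0.184 and 0.734). The other probe set of each was also below 0 without passing, at -0.16 for PRDX6, -0.22 for STX12 and -0.11 for PLCB4. Failing the test does not show that a gene was unchanged, as only 22% of true log2 differences of 0.3 passed in simulated data. The difference of PLCB4 was -0.09 as deposited and turned to 0.02 under repeated quantile normalization and under upper-quartile centring, and to 0.04 without GFP vector DMSO replicate 1.

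The 21 targets taken to the study's siRNA screen had a median log2 difference of -0.15, with 17 below 0. There was no overlap between the arrays for 12 of the 21, 10 lower and 2 higher (GRIA4 and KIR2DL3, both near background), where 28.4% of all genes did not overlap. The other 13 had a median of 0.01, with 5 below 0. As the screened targets were mostly bright, their background is that of bright genes. The 28.4% covers both directions and all levels, and no such share was computed for bright genes. Bright genes leaned lower as deposited, with 32.3% higher at levels of 6 to 8 and 30.6% at 8 to 10. The 16 whose mean log2 value was 6 or more had a median of -0.15, and all 9650 genes at such levels a median of -0.06. The median of the 21 was -0.06 under repeated quantile normalization, -0.08 under cyclic loess, -0.18 under median centring and -0.04 under upper-quartile centring. Next to HMOX1 and ZNF213, the lower member with the smallest adjusted p was COLGALT1, a collagen galactosyltransferase (9.29, 9.24 and 9.19 against 9.07, 9.07 and 8.99), at -0.20 (adjusted p = 0.125). The glutamate receptor gene GRIA4, at background in both lines, was at 0.45 (adjusted p = 0.0865).

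**Figure D4:**
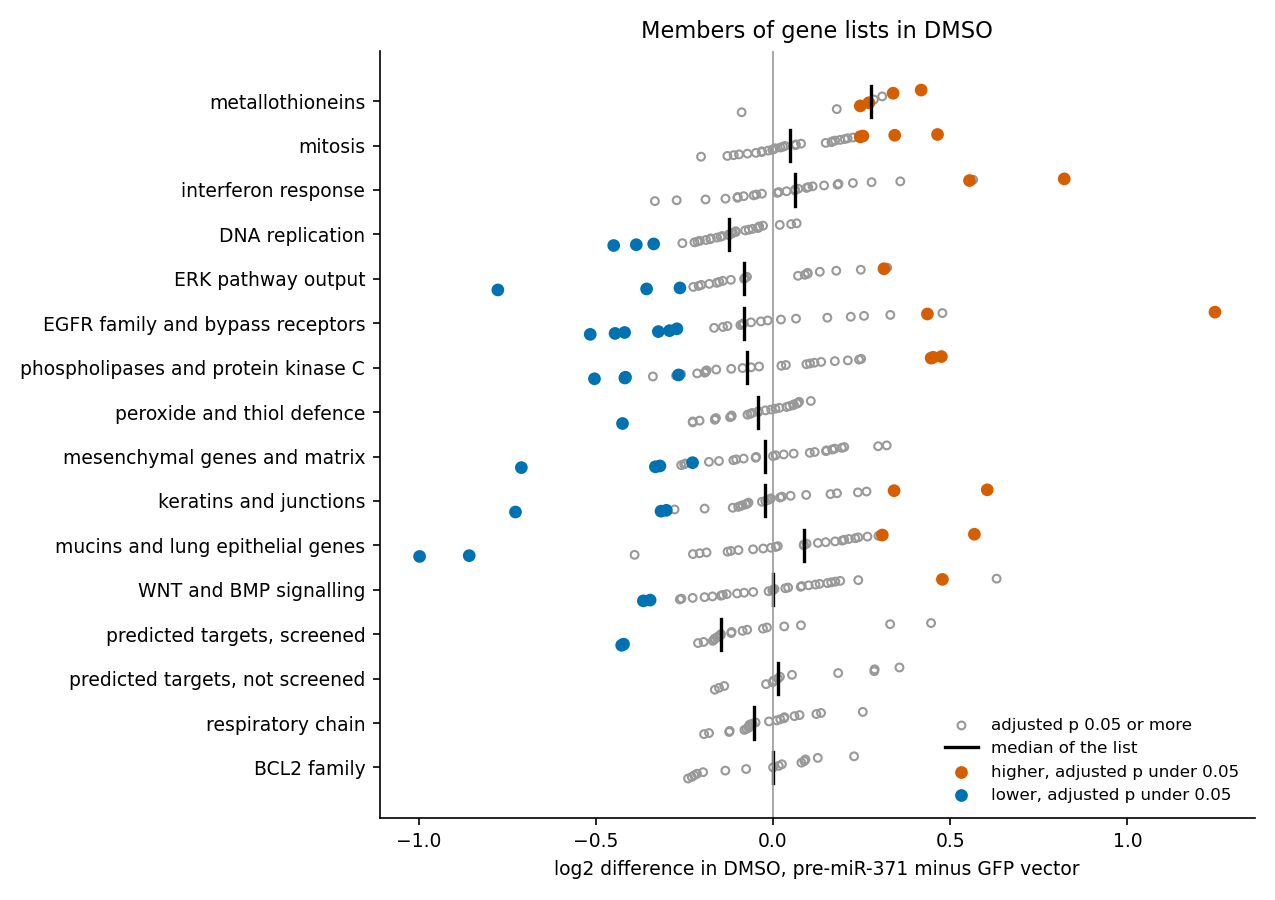
Log2 differences in DMSO of the members of 16 gene lists, each point 1 gene, with a bar at the median and filled points for members that passed the adjusted p. The medians run from -0.15 for the screened targets to 0.28 for metallothioneins.

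Beyond the targets, 29 lists of pathway and marker genes were read in the same fit. Of the 615 genes measured in all 31 lists, 63 passed the adjusted p, and 20 of these passed under every scaling and without any 1 array. The genes described next are mainly those 20, and values of other members are given with the arrays whose loss ended the call. Counts of a list are set beside the shares of all genes, 1.62% higher and 3.64% lower, and no list was tested against other genes. Of 23 genes of ERK pathway output, which carries the signal of EGFR to transcription, 3 were lower (13.0%, all genes 3.64%) and 1 was higher (4.35%, all genes 1.62%), with a median of -0.08. With 1 array left out 1 to 3 were lower, and under upper-quartile centring 1 was. EGR1, an immediate early transcription factor, read 8.15, 8.19 and 8.44 in GFP vector cells and 7.61, 7.52 and 7.33 in pre-miR-371 cells (-0.78, SE 0.10, adjusted p = 0.00223), and its other probe sets were at -0.93 and -0.56. FOS, its partner in the early response, was at -0.36 (adjusted p = 0.0187), and was lost without GFP vector replicate 1 or 2 or any pre-miR-371 array in DMSO (0.0534 to 0.0661). EGFR itself read 11.43, 11.49 and 11.49 against 11.43, 11.41 and 11.47, with a difference of -0.03 (adjusted p = 0.757). Its other probe sets ran from -0.44 to 0.01. Only the one at -0.44 passed with every probe set tested (adjusted p = 0.0456), at a mean log2 value of 6.19.

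Receptors and ligands of the EGFR family and of bypass pathways, with the binding proteins of insulin-like growth factors, numbered 25, of which 2 were higher (8.0%, all genes 1.62%) and 6 lower (24.0%, all genes 3.64%). The 6 became 2 to 7 with 1 array left out and 3 under upper-quartile centring. The binding proteins went in different directions. IGFBP3, which sequesters insulin-like growth factors in the circulation, read 9.85, 9.81 and 9.75 against 9.30, 9.27 and 9.29 (-0.52, adjusted p = 0.00057), and its other probe set passed at -0.60. IGFBP2 read 8.41, 8.35 and 8.22 against 7.89, 7.92 and 7.92 (-0.42, adjusted p = 0.00564), while IGFBP5 rose on 1 of its probe sets as described above. FGFR3, a growth factor receptor read near background, was at -0.45 (adjusted p = 0.0145), and was lost without GFP vector replicate 2 or pre-miR-371 replicate 3 in DMSO (0.0565 and 0.0639).

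Of 29 genes of DNA replication 0 were higher and 3 lower (10.3%, all genes 3.64%), 26 were below 0, and the median was -0.12. The lower members numbered 2 to 6 with 1 array left out. GINS2, a part of the replicative helicase, read 10.59, 10.59 and 10.52 against 10.12, 10.16 and 10.08 (-0.45, adjusted p = 0.00184). RRM2, the small subunit of ribonucleotide reductase, read 12.72, 12.62 and 12.63 against 12.30, 12.30 and 12.21 (-0.39, adjusted p = 0.00448). For GINS2 the brighter of its other probe sets was at 0.17 (adjusted p = 0.414), at a mean log2 value of 5.80, and for RRM2 the other probe set was at -0.20 (adjusted p = 0.146). Of 30 genes of mitosis 4 were higher (13.3%, all genes 1.62%) and 0 lower, with a median of 0.05, and with 1 array left out the 4 became 0 to 4. The difference between these lists was not tested. MAD2L1, a spindle checkpoint protein, read 10.33, 10.32 and 10.25 against 10.55, 10.92 and 10.84 (0.46, adjusted p = 0.0152). It was lost without pre-miR-371 replicate 2 or 3 in DMSO (0.0599 and 0.0682), and an equally bright probe set of the gene was at -0.01. The median of the replication genes was -0.02 under upper-quartile centring, where that of all genes was 0.10, and 3 members were lower under each of the 4 scalings. The mitosis genes that passed numbered 7, 8, 1 and 8 under repeated quantile normalization, cyclic loess, median centring and upper-quartile centring.

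Metallothioneins, small proteins that bind zinc and copper and are induced by metals, were the list with the highest median, 0.28, and 4 of 8 were higher where 1.62% of all genes were. MT1X read 9.39, 9.41 and 9.42 in GFP vector cells and 9.75, 9.73 and 9.76 in pre-miR-371 cells (0.34, adjusted p = 0.00494). MT1H read 9.16, 9.20 and 9.21 against 9.59, 9.63 and 9.60 (0.42, adjusted p = 0.00733). The arrays of a group lay close together and the groups did not overlap. These genes are near-identical copies and were read from probe sets that can bind several of them, so the 4 are not separate observations, and a second probe set of MT1X was at 0.09 (adjusted p = 0.59). The median was 0.25 to 0.38 under the 4 scalings. The count of 4 became 2 under median centring and 2 to 3 with 1 array left out, where MT1F was lost without any array other than GFP vector DMSO replicate 3, and MT2A without GFP vector DMSO replicate 2 or 3 or any pre-miR-371 DMSO array. The adjusted p without them was 0.0526 to 0.162 for MT1F and 0.0533 to 0.0988 for MT2A.

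Of 27 interleukins, chemokines and targets of NF-kB, 2 were lower (7.41%, all genes 3.64%), IL1RN and TNFAIP3, and 0 higher. TNFAIP3, the enzyme A20 that restrains NF-kB, read 10.03, 10.05 and 10.01 against 9.48, 9.55 and 9.50 (-0.52, adjusted p = 0.000944), and its second probe set passed as well at -0.55. The noncoding RNA WAKMAR2, described above, also fell. Of 28 interferon response genes, 2 were higher (7.14%, all genes 1.62%) and 0 lower. GBP1, an interferon-induced GTPase, read 5.24, 5.03 and 4.86 against 5.74, 5.95 and 5.90 (0.82, adjusted p = 0.00251), and its relative GBP2 5.38, 5.15 and 5.02 against 5.70, 5.69 and 5.84 (0.55, adjusted p = 0.00619). Both were under a log2 value of 6 in each line, and the median of the 28 was 0.06. Among 17 genes of MHC class I antigen presentation 1 was higher (5.88%) and 0 lower, with a median of -0.05.

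Of 28 mesenchymal and matrix genes 4 were lower (14.3%, all genes 3.64%) and 0 higher, with a median of -0.02, and 2 to 4 were lower with 1 array left out. TGFB2, a transforming growth factor, read 7.61, 7.63 and 7.55 against 6.81, 6.98 and 6.87 (-0.71, adjusted p = 0.000257), and the transcription factor SNAI2 read 8.81, 8.80 and 8.80 against 8.47, 8.44 and 8.51 (-0.33, adjusted p = 0.0108). The other probe sets of TGFB2 were at -0.29, -0.27, -0.25 and 0.21, and none of them passed. Of 27 keratins and junction genes 2 were higher (7.41%, all genes 1.62%) and 3 lower (11.1%, all genes 3.64%). This split was 4 and 2 under repeated quantile normalization, 4 and 3 under cyclic loess, 1 and 3 under median centring and 5 and 1 under upper-quartile centring, and with 1 array left out 0 to 2 were higher and 1 to 3 lower. KRT13, a keratin of stratified epithelium, read 11.53, 11.45 and 11.27 against 10.69, 10.70 and 10.68 (-0.73, adjusted p = 0.000257). Mucins and lung epithelial genes, 29 in number, had 2 higher (6.90%, all genes 1.62%) and 2 lower members (6.90%, all genes 3.64%), the latter CEACAM5 and TFF1. The higher members numbered 5 under upper-quartile centring and 1 under median centring, with 2 lower in each. AGR2, a protein disulfide isomerase of secretory cells, read 7.42, 7.33 and 7.25 against 7.97, 7.85 and 7.88 (0.57, adjusted p = 0.000917). LEF1, a transcription factor of WNT signalling, read 7.80, 7.64 and 7.69 against 7.38, 7.37 and 7.33 (-0.35, adjusted p = 0.00725), among 31 WNT and BMP genes of which 1 was higher (3.23%, all genes 1.62%) and 2 were lower (6.45%, all genes 3.64%).

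Phospholipases and protein kinase C, the enzymes that connect PRDX6 and PLCB4 in the study, had 3 higher (10.0%, all genes 1.62%) and 4 lower (13.3%, all genes 3.64%) members of 30 and a median of -0.07. On the chosen probe sets, no member passed without each of the 12 arrays in turn. The counts ran from 0 to 3 higher and from 0 to 6 lower with 1 array left out. With every probe set tested, the other probe sets of PLA2G12A were at -0.75 (adjusted p = 0.000313), -0.62 (0.000628) and 0.02 (0.947). The brightest other probe set of PLCE1 was at -0.51 (adjusted p = 0.0019). These were not recomputed with arrays left out. PRKCA, the kinase PKC alpha, read 8.35, 8.0 and 7.94 against 7.77, 7.73 and 7.76 (-0.34, adjusted p = 0.0543). Genes of peroxide and thiol defence, 27 in number, had 1 lower member, HMOX1 (3.7%, all genes 3.64%), and a median of -0.04. On their chosen probe sets, no member passed in either direction among 22 genes of the respiratory chain and 19 of the hypoxia response. The same held for 15 of the BCL2 family, 14 ribosomal proteins and 20 chromatin genes tied to drug tolerance (0 of each). With every probe set tested, some members passed as lower on another probe set. Among them were NDUFS1 of the respiratory chain (-0.70, adjusted p = 0.00784) and BCL2 (-0.59, adjusted p = 0.028), whose remaining other probe sets did not pass. Under repeated quantile normalization 2 of the hypoxia genes were higher. Cholesterol and fatty acid synthesis (17 genes), lysosome (21) and the microRNA pathway (14) had 2, 2 and 1 lower members (11.8%, 9.52% and 7.14%, all genes 3.64%). Of these, 0 were left under repeated quantile normalization.

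The differences between the lines could be read a second time on the 6 erlotinib arrays, which come from the same lines. The DMSO comparison did not use them as groups, but they were part of the fit that gave its SE. Each gene thus had the same SE in both treatments, such as 0.0796 for C1orf50. Of the 89 genes, 78 had the same sign there, and 56 also passed the adjusted p (26 of the 43 higher and 30 of the 46 lower), where 6.50% of all genes were higher and 9.46% lower in pre-miR-371 cells. The sizes were smaller, with a median of 0.49 against 0.68 in DMSO for the higher genes and -0.45 against -0.72 for the lower ones. A smaller second value is favoured by the choice of the genes on the first. Calling in DMSO also favoured genes with a small SE, and that same SE made passing in erlotinib more likely. The 56 of 89 that passed are therefore not a separate test against the shares of all genes. ZPLD1 was at 2.99 in erlotinib, C1orf50 at -1.28, ATP6V1C2 at 1.28 and SLC35E1 at -0.89, close to their values in DMSO. CEACAM5 was at -1.22 and GBP1 at 1.31, against -0.86 and 0.82 in DMSO, and the difference between the treatments did not pass (adjusted p = 0.178 and 0.154 from limma). For 15 of the 89 the difference between the treatments itself passed (2.00% of all genes did), and 2 passed in the opposite direction in erlotinib, EGR1 at 0.36 and the calpain gene CAPN5 at -0.30. The diamine oxidase gene AOC1, also named after its values were seen, went from 0.63 in DMSO to 2.64 in erlotinib. In DMSO its arrays were near background, at 3.60, 3.82 and 3.47 in GFP vector cells and 4.18, 4.36 and 4.23 in pre-miR-371 cells.

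**Figure D5:**
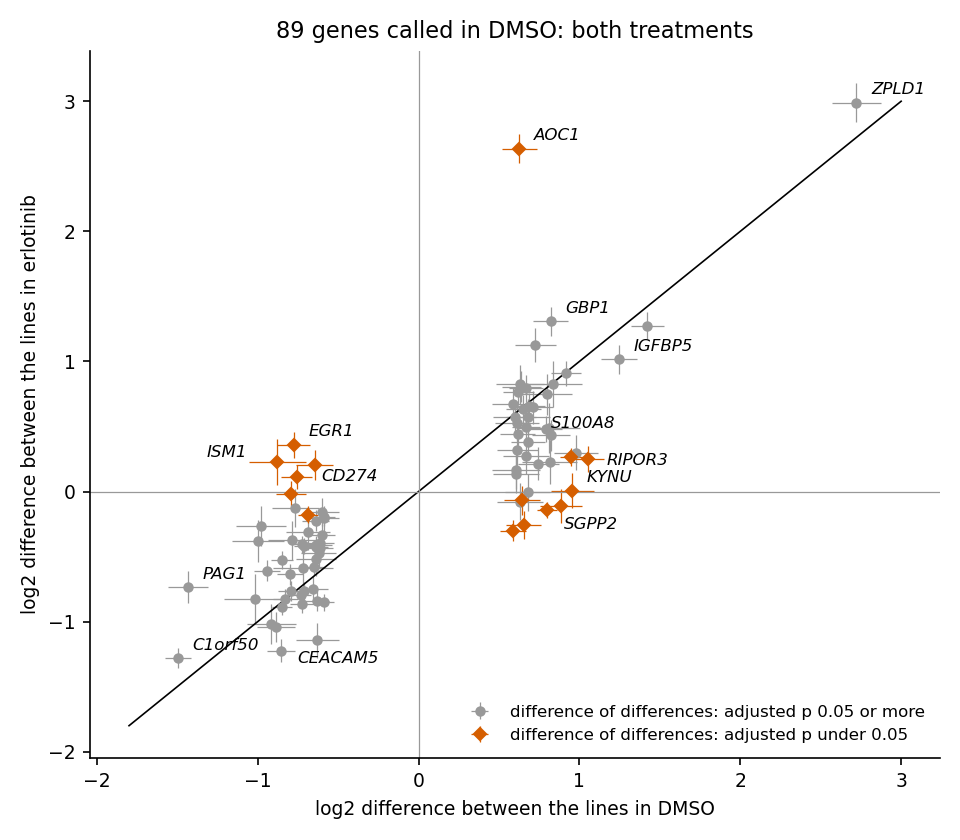
Log2 difference between the lines, pre-miR-371 minus GFP vector, in DMSO (x axis) and in erlotinib (y axis) for the 89 genes called in DMSO. Bars are standard errors, the diagonal marks equal differences and diamonds are the 15 genes whose difference between treatments passed the test. ZPLD1 at 2.72 and 2.99 and C1orf50 at -1.49 and -1.28 lie near the diagonal, while SGPP2 and CD274 lie near 0 in erlotinib.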

How the data were processed

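Total RNA of PC-9 lines was labelled and hybridised to Affymetrix Hgu133plus2 arrays. The authors deposited 1 log2 expression value per probe set and array. RMA and affy are given in the submitters' processing notes and quantile normalization in the methods, with versions not given in the sources used here. Of 54675 probe sets, 41097 had 1 symbol, 1801 several and 11777 none in the platform annotation, which can be old. Symbols were updated through Entrez identifiers for 19735 of 19775 genes, and the 62 control probe sets were left out. No 2 arrays held identical values (0 pairs). Arrays were grouped by their labels. Listed targets FAM73B, GLT25D1, CXorf23, WBSCR17 and ZNF192 were read under newer symbols.

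Differences and their standard errors (SE) were estimated with limma 3.58.1 (lmFit and eBayes, all 12 arrays, 1 mean per group, R 4.3.3), with Benjamini-Hochberg adjustment over all 19775 genes. Called means adjusted p under 0.05 and fold over 1.5. List members and targets were counted at the adjusted p alone. The 3 against 3 arrays of single targets were also compared by exact two-sided permutation. Named genes are the 15 largest rises and falls among called genes without overlap, targets that pass, PRDX6, PLCB4 and STX12, and up to 4 members of each list by p. The members and lists were chosen with earlier results of these data known. In simulated data for this comparison (200 of 19775 genes changed, split evenly over the sizes), true log2 differences of 0.3, 0.6, 1 and 2 were recovered for 22%, 72%, 98% and 100% at the adjusted p alone, and for 0%, 56%, 98% and 100% when the fold was required too. The simulated arrays had independent normal noise with the spread of each gene. They held no shift in scaling and no trend with level, so the rates do not cover these features of the real arrays. Seed matches in transcripts were not analysed here. Alternatives were other scalings, probe set rules, filters, fits, thresholds and each array left out. The number of arrays limits the precision. Sequences are from RefSeq (GRCh38.p14). Figures were drawn with matplotlib 3.10.9.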

Additional observations from a re-analysis of the deposited data

Results flagged for a closer look

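The difference between the lines was not the same in DMSO and in erlotinib for 26 of the 90 named genes that passed in DMSO, by limma's test of the difference of differences (erlotinib minus DMSO, Benjamini-Hochberg over all genes). Of all genes, 2.00% passed that test. The named genes were picked with values of these data known, so 26 of 90 is not a rate for genes at large. The difference of differences was positive in 15 and negative in 11. In 24 the size was smaller in erlotinib, which the choice of genes on their DMSO values favours.

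Genes that were lower in pre-miR-371 cells in DMSO had positive values. These were EGR1 at 1.14 (adjusted p = 0.00615), ISM1 at 1.11 (0.0462), CD274 at 0.87 (0.00832), B4GALT6 at 0.78 (0.0128), FGFR3 at 0.75 (0.00926), GINS2 at 0.67 (0.00615), TNFAIP3 at 0.66 (0.00615), FOS at 0.65 (0.00926), SNAI2 at 0.55 (0.00811), NXN at 0.51 (0.015), POLA1 at 0.49 (0.0215), FASN at 0.45 (0.041) and RRM2 at 0.37 (0.0427). SLC2A3, the glucose transporter GLUT3, and AOC1, a diamine oxidase, were higher in DMSO and had positive values of 0.78 (0.0072) and 2.01 (0.000556), so their differences were larger in erlotinib. EGR1, GINS2, FOS, SNAI2 and FGFR3 were lower in DMSO and higher in erlotinib, past the adjusted p in both, and CAPN5 was higher in DMSO and lower in erlotinib (6 genes in all).

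Other genes that were higher in DMSO had negative values. These were PCLO at -1.0 (0.0192), KYNU at -0.95 (0.0282), SGPP2 at -0.94 (0.00121), CAPN5 at -0.89 (0.00632), RIPOR3 at -0.80 (0.016), AGR2 at -0.74 (0.00615), GBP2 at -0.69 (0.0165), S100A8 at -0.69 (0.00782), MT1H at -0.47 (0.032), MT1X at -0.46 (0.00926) and MT2A at -0.37 (0.0356). The 3 metallothioneins can share probes. CD274, NXN, AOC1 and CAPN5 were named after their values were seen.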

How the results depend on the processing

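Of 2788 values of 113 named genes under alternatives, 2377 kept their direction and side of the threshold, 348 lost the call, 49 gained one and 14 turned sign. The count of 89 was 42 with the mean of a gene's probe sets, 186 with every probe set tested, 45 with only genes of a mean of at least 6, 7 after adjustment with Student's t-test, which the methods name for data other than the arrays, 1039 without a fold limit, 7 with a fold limit of 2, and 79 to 142 with 1 array left out. Targets lower numbered 6 with every probe set, 5 with the filter at 6, 0 with the 6 DMSO arrays alone, 6 with trend and robust variance, 6 with array weights, 0 and 8 with the t-test adjusted and unadjusted, 9 at unadjusted p, and 1 to 2 with 1 array left out. Genes kept in erlotinib, 56, were 27 with the mean of probe sets and 47 to 71 with 1 array left out. The median of all genes, -0.0013, was 0.0181 under repeated quantile normalization, -0.0301 under median centring and 0.1014 under upper-quartile centring. Some signs turned where probe sets with names not ending in _s_at or _x_at were preferred. These were IL1RN (0.14), S100A8 (-0.0443), GINS2 (0.17), MAD2L1 (-0.0053), HEXA (0.0554), TPP1 (0.11) and POSTN (-0.0095). The replacing probe sets of IL1RN, S100A8 and POSTN were at background on the DMSO arrays, at mean log2 values of 3.18, 2.71 and 2.44. Those of HEXA, TPP1 and GINS2 were at 4.25, 5.18 and 5.80, and that of MAD2L1 at 10.41. With the mean of probe sets, signs turned for CYCS (-0.14) and LOXL2 (0.0023). Under upper-quartile centring they turned for RPL19 (0.0010), KRT8 (0.0047) and PLCB4 (0.0169). PLCB4 also turned under repeated quantile normalization (0.0177) and without GFP vector DMSO replicate 1 (-0.1828 to 0.0350 with 1 array left out). The cause was not tested. Same-numbered DMSO arrays of the lines shared little beyond a number (r -0.021, 0.016 and -0.023 of their deviations). Between DMSO and erlotinib, same-numbered arrays gave r 0.198, -0.016 and 0.113 in GFP vector cells and 0.135, 0.050 and 0.119 in pre-miR-371 cells. The main fit took the arrays as independent, and the replicate block gave 93 calls. Seed matches were not run, since no transcript sequence was at hand.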
